A study of Mus musculus with 4 samples.

Results

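Phosphorylated STAT3 (pSTAT3-Y705) was listed at 6 histone genes in Lin-Sca1+cKit+ (LSK) cells, and every one of these peaks came from untreated leukemic cells. The genes were Hist1h2ac, Hist1h2bc, Hist1h2bg, Hist1h3a, H3f3a and H3f3b. They were chosen by their name as the gene nearest to a peak in the deposited table, so their presence in CML and absence from the other libraries is a description and was not tested. They were 6 of the 958 gene names in the table and 6 of the 493 named in CML. WT named 262 genes and CML-TKI 681, with 0 histone genes in each.

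LSK cells are bone marrow cells enriched for stem cells and early progenitors of the blood. The WT cells were from untreated wild-type C57BL/6 mice. The CML cells were from untreated mice of the chronic myeloid leukemia model, in which BCR-ABL, a constitutively active tyrosine kinase, is switched on through SCL-tTA once tetracycline is withdrawn. The CML-TKI cells were from leukemic mice of the same model given imatinib, a BCR-ABL inhibitor, on alternate days. The labels disagree on its dose, which is 200 mg/kg over 4 weeks in one field and 400 mg/kg over 30 days in another. Each group was 1 library, and the number of mice behind a library is not given in the sources used here. The fourth sample, an IgG control entered as input, was not analysed here. With 1 library a group there is no replicate check on any difference. The table carries no read count or enrichment value, so the depth behind a peak is unknown. It also lists far fewer peaks than the study's text gives sites for each library, so counts and gaps hold for this table only, and a gene missing from a library's list was not shown to be unbound. Of 14 LSK and lineage surface markers, 2 were named in each library, all by peaks over 10 kb from a TSS, and peaks near a marker do not establish the identity of the cells.

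Histones package DNA into nucleosomes, each made of a core of H2A, H2B, H3 and H4. Replication-dependent histone genes stand in clusters, carry no or few introns, and are transcribed mainly in S phase. H3f3a and H3f3b, by contrast, lie outside the clusters, contain introns, and encode the H3.3 variant, which is deposited throughout the cell cycle at active genes. STAT3 is a cytokine-activated transcription factor that binds DNA as a dimer after phosphorylation at Y705, typically at sites of the form TTCNNNGAA.

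The upstream DNA of these genes is printed because the peaks did not cover it. The stretches below are RefSeq promoter sequence of GRCm38, read along the named gene up to the base before its start. For Hist1h2ac (chr13:23683960-23684198, minus strand) and Hist1h2bg (chr13:23571221-23571399, plus strand) each is the whole DNA between the starts of a divergent pair, the partners being Hist1h2bc and Hist1h2ae. For H3f3a (chr1:180813606-180813855, minus strand) and H3f3b (chr11:116024505-116024754, minus strand) it is the 250 bases before the start. Capitals mark the CCAAT box, the TATAAA box and the octamer ATTTGCAT, each on either strand, which are classical elements of histone promoters. Promoter windows were found for 4 of the 6 genes.
Hist1h2ac: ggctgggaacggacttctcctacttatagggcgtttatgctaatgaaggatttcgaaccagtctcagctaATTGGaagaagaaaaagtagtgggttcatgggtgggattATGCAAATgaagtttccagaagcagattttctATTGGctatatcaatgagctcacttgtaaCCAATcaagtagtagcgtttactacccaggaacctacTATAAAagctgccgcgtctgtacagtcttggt
Hist1h2bg: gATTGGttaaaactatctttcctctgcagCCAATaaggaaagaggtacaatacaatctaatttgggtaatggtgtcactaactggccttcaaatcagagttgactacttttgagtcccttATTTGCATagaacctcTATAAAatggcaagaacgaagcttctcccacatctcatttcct
H3f3a: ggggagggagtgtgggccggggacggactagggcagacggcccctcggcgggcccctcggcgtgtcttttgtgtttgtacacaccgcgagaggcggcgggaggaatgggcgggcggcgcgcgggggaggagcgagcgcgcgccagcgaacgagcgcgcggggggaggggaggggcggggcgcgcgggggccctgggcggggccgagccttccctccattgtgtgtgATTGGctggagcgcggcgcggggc
H3f3b: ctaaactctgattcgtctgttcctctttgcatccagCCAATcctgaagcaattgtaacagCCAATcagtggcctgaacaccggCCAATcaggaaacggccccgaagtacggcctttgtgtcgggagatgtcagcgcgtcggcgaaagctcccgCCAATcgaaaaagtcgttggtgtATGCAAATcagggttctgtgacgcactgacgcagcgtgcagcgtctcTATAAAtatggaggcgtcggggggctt

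All 4 windows (250 bases before to 50 after the start) held CCAAT, and those of Hist1h2ac, Hist1h2bg and H3f3b also held TATAAA and ATTTGCAT. H3f3a had neither, and its upstream stretch carried 1 CCAAT box, against 4 in H3f3b, 3 in Hist1h2ac and 2 in Hist1h2bg. Among 32851 promoter windows of all genes 37.4% held CCAAT, 13.6% TATAAA and 1.74% ATTTGCAT. Among 65 windows of histone genes the shares were 86.2%, 55.4% and 23.1%. The STAT motif TTCNNNGAA was in 0 of the 4 windows, in 3 of the 65 histone windows (4.62%) and in 8.3% of all windows. A match or its absence describes these letters only.

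Of 69 protein-coding histone genes in the RefSeq gene table, 6 (8.7%) were named in CML, where 1.93% of all protein-coding genes were named. In WT 0 of 69 were named, with 1.03% of all protein-coding genes, and in CML-TKI 0 of 69, with 2.68%. The names chose the genes, so nothing is read from these shares. Of the protein-coding genes named in CML, 55.9% were named in no other library, so a CML-only gene was the more common kind in that list. By histone class, the genes with a peak were 1 of 18 H2A genes, 2 of 18 H2B genes, 1 of 12 clustered H3 genes and both H3.3 genes. None of the 13 H4 or 6 linker H1 genes had a peak in any library. By locus they were 4 of the 54 genes on chromosome 13, the Hist1 cluster, and 0 of the 10 Hist2, 2 Hist3 and 1 Hist4 genes.

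The 4 cluster peaks lay within 191 kb of each other on chromosome 13, and all 6 histone peaks lay downstream of a start site, inside or just past the gene. Coordinates are mm9. Hist1h2ac (Gene ID 319164), which encodes an H2A, had a peak at chr13:23774971-23775487. It was 516 bp wide with its centre 599 bp downstream of the TSS, and ran from 341 to 857 bp, past the end of the 487 bp RefSeq transcript. Hist1h2bc (68024), which encodes an H2B, had a peak at chr13:23776392-23776600. It was 208 bp wide, centred at 428 bp and spanned 324 to 532 bp, over the end of its first exon at 423 bp. Both peaks thus sat on the far sides of a divergent gene pair. They were 905 bp apart, and the gap held both start sites, which are 240 bp from each other.

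Hist1h2bg (319181), a second H2B gene, had a peak at chr13:23663626-23663876. This peak was 250 bp wide, centred at 482 bp, and spanned 357 to 607 bp, again over the transcript end at 464 bp. Hist1h2bg is also divergent, with its start 180 bp from that of the H2A gene Hist1h2ae, and no peak was named for Hist1h2ae. Hist1h3a (360198), which encodes a replication-dependent H3, had a peak at chr13:23854041-23854175. It was the exception in place, 134 bp wide and within the coding part of the gene, from 80 to 214 bp. The table classed these 4 peaks as promoter-TSS, but by the start of a neighboring transcript. Their centres lay 839 bp (Hist1h2ac), 668 bp (Hist1h2bc), 662 bp (Hist1h2bg) and 990 bp (Hist1h3a) upstream of that start. For Hist1h3a the neighbor was the H4 gene Hist1h4a, on the same strand. The class therefore does not place a peak at the promoter of the gene it is named for.

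H3f3a (15078) had a peak at chr1:182742959-182743091 in its first intron, 132 bp wide and centred 709 bp downstream of the TSS. It lay wholly between exon 1, which ends at 135 bp, and exon 2. H3f3b (15081) had the widest of the 6 peaks, 668 bp at chr11:115885088-115885756, centred at 396 bp. This peak began 62 bp from the TSS inside exon 1 of 126 bp, ran over the first intron and exon 2, and ended at 730 bp, just inside exon 3. The H3f3a peak was annotated as a CpG island, and so was that of H3f3b. For the cluster peaks the same field held a promoter-TSS label instead, so whether they lie in a CpG island is not given. Peaks at H3f3a and H3f3b thus shared the CpG annotation but differed in width, 668 bp against 132 bp. The peak of H3f3b was listed once and the other 5 were listed 2 times each. For H3f3a the second listing had both ends rounded to 1 Mb.

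**Figure D1:**
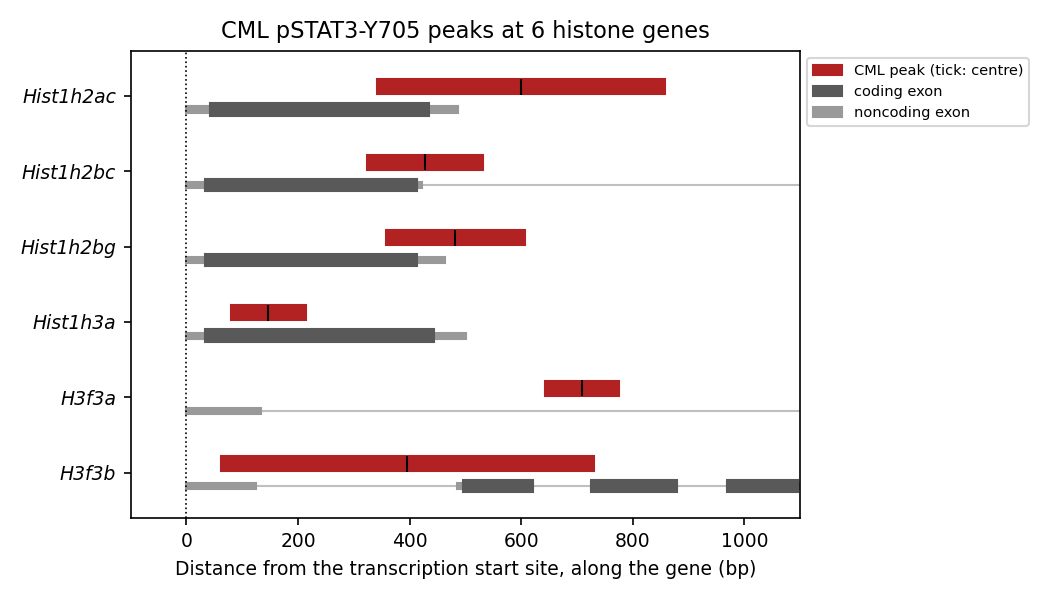
The red bars show the CML peaks at the 6 histone genes by distance from the transcription start site (bp, x axis), with a tick at each peak centre, and the grey boxes the RefSeq exons of GRCm38 laid out from the same start. No bar covers the start at 0, the nearest edge being that of H3f3b at 62 bp. The bars of Hist1h2ac, Hist1h2bc, Hist1h2bg and H3f3b run over the end of the first exon.

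The genes were chosen by the name of the nearest TSS and not by a cut-off on distance. Name and distance are still linked, most of all where genes stand close together as in the cluster. The shares below are therefore a description. All 6 peak centres lay within 1 kb of a TSS, and 4 within 500 bp. Of all 715 distinct CML peaks 122 (17.1%, exact Clopper-Pearson 95% interval 14.4 to 20%, counting error only) lay within 1 kb. The shares in WT and CML-TKI were 9.25% and 14.7%. Without the 10 most listed genes and chromosome Y they were 18.7% and 22%, against 22.6% in CML. All protein-coding genes named by a CML peak within 1 kb of the TSS were 0.507% of the gene table. The 6 peaks also lay wholly downstream of the start, as did 36 (31%) of the other 116 CML peaks within 1 kb. In that set the median centre was at -20.5 bp, against a median of 455 bp downstream for the histone peaks. CpG island annotation was found for 12 of the 116 (10.3%), against 2 of the 6. Of the 116, 82 (70.7%) were classed as promoter-TSS. In the cluster peaks that label filled the annotation field, so these shares do not measure CpG island content. The histone genes made up 6 of the 85 genes with a CML peak this close to a start and no peak in WT or CML-TKI, which were 70.2% of all 121 genes with such a CML peak.

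The 6 widths spread from near the bottom to near the top of the CML list. The CML median was 187 bp (quartiles 157 and 262) and that of the histone peaks 229 bp. H3f3b was wider than 96.8% of CML peaks and Hist1h2ac than 93.5%, followed by Hist1h2bg (73.1%) and Hist1h2bc (61.0%). Hist1h3a (4.5%) and H3f3a (2.11%) were among the narrowest. Of the 116 other CML peaks near a TSS, 2 were wider than 500 bp, as were 2 of the 6 histone peaks.

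**Figure D2:**
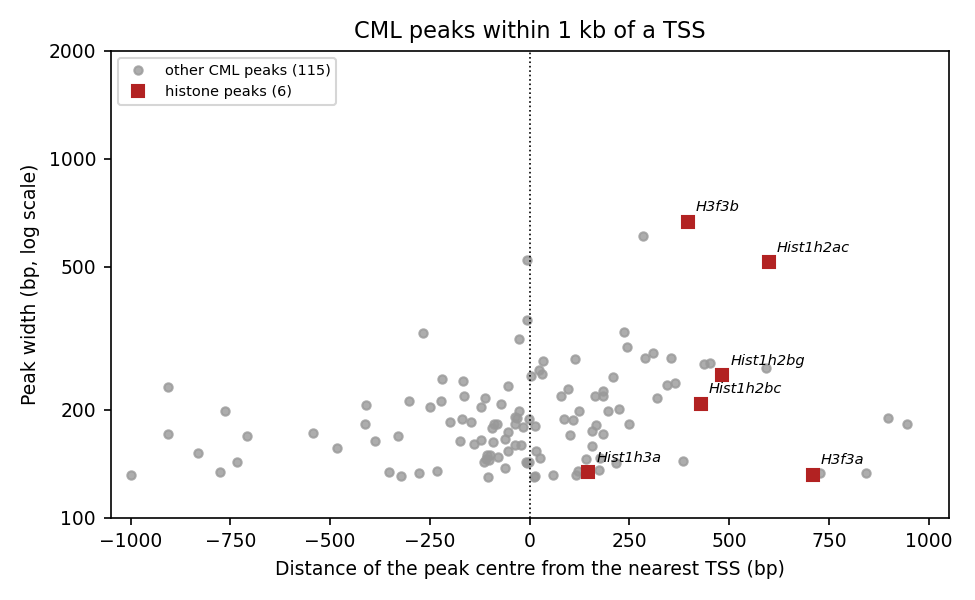
Each point is 1 CML peak within 1 kb of a TSS, by the distance of its centre from the TSS (bp, x axis) and its width (bp, log y axis), with the 6 histone peaks as red squares and 115 other peaks with known ends in grey. The histone squares all sit to the right of 0, from Hist1h3a at 147 bp to H3f3a at 709 bp, while the grey points gather around the start.

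In the table used here, 0 of the 6 peaks overlapped a WT or CML-TKI peak, and 0 did so when a gap of up to 1 kb was allowed. Of the 711 CML peaks with known ends 41.5% overlapped no peak of either library, and of the 121 within 1 kb of a TSS 71.1% did not. Most CML peaks near a start thus had no counterpart in the other lists, and the zero for the histone peaks follows in part from how the genes were chosen. Among peaks with known ends, the nearest in WT was 1029179 bp from Hist1h3a and farther from the other 3 cluster peaks, up to 1219478 bp for Hist1h2bg. The nearest CML-TKI peak, in an intron of Gm11346, was between 837399 bp (Hist1h3a) and 1027698 bp (Hist1h2bg) away. For H3f3a the gap was 3617210 bp to WT and 499672 bp to CML-TKI, and for H3f3b 5834127 bp and 1047353 bp. No peak without ends was listed at the 1 Mb position nearest to H3f3a or H3f3b in any library. The position of the cluster was not looked up in this way.

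Around the 4 cluster peaks, with 1 Mb on either side, CML listed 8 peaks with known ends, CML-TKI 2 and WT 0. Peaks without ends were left out of this count. Of the 8, 4 were the histone peaks themselves and 2 were Gm11346 peaks, overlapping each other, that CML-TKI listed at the same positions. On the whole of chromosome 13 the peaks with known ends numbered 38 for CML, 43 for CML-TKI and 11 for WT. No peak with known ends under another name fell among the 20 histone genes from Hist1h2bg to Hist1h3a. The closest such peaks were also in CML only. One, intergenic, was named for the noncoding RNA gene C230035I16Rik (chr13:23528232-23528439), 135187 bp before the first cluster peak. The other lay in an intron of Slc17a4, a solute carrier gene (chr13:24005840-24006022, 945 bp from its TSS), 151665 bp past the last.

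**Figure D3:**
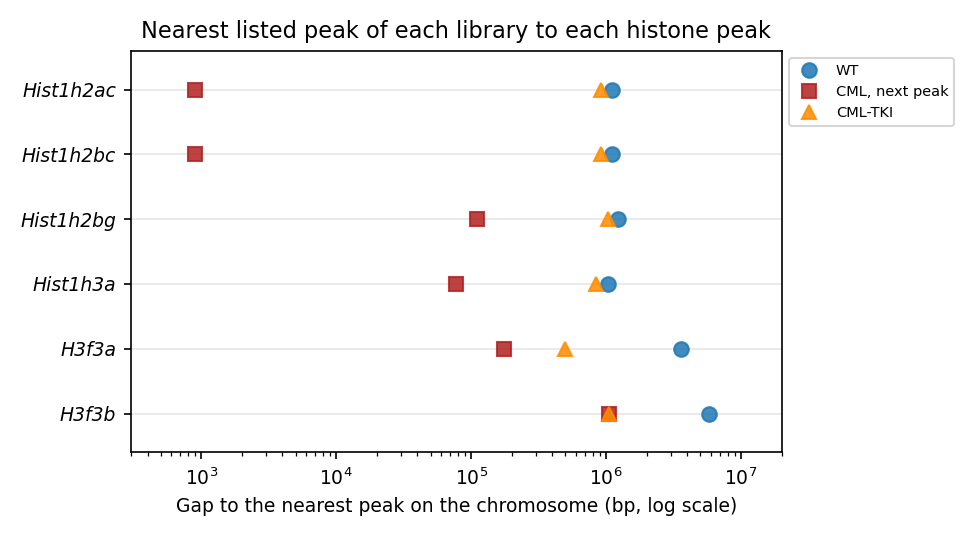
For each histone gene the symbols give the gap (bp, log x axis) from its CML peak to the nearest peak with known ends in WT, in CML-TKI and to the next peak in CML. The next CML peak is 905 bp away for Hist1h2ac and Hist1h2bc, while every WT and CML-TKI symbol lies at 499672 bp or more.

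Some histone genes are near copies of each other, and reads from a shared stretch can fit several places. The coding sequences of Hist1h2bc and Hist1h2bg (381 bases each) were 98.7% identical and encode the same protein of 126 residues. H3f3a and H3f3b (411 bases each) were 76.9% identical in coding sequence, and also encode 1 protein, of 136 residues. It differed at 5 residues from that of Hist1h3a, whose coding sequence was 77.1% identical to H3f3a and 80.5% to H3f3b.

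To see where reads could be placed, the first 1000 bases from each RefSeq start were searched for stretches of 31 bases (31-mers) found once in GRCm38. Over the 6 genes 63.8% (Hist1h2bc) to 96.2% (H3f3a) of the 31-mers were unique, with a median of 68.0%, against a median of 66.3% over the other 63 histone genes, which ranged from none to all. The medians were thus close, but the other genes reached well below the lowest of the 6. In the cluster genes with a peak the later part was the more unique. The medians over the other 63 histone genes went the same way, with 42.2% in the first 500 bases and 100% beyond. Some single genes among them went the other way, such as Hist1h3f (92.6% and then 18.7%). Of 31-mers that began in the first 500 bases 29.8% (Hist1h2bc), 32.0% (Hist1h2bg), 35.8% (Hist1h2ac) and 40.6% (Hist1h3a) were unique, while of those beyond 99.4% were unique in Hist1h2ac and all of them in the other 3. At the distances where the peaks lay, the unique share was 86.0% for Hist1h2ac, 84.6% for Hist1h2bg, 66.5% for Hist1h2bc and 15.2% for Hist1h3a. In H3f3a every 31-mer there was unique, and in H3f3b 90.6% were. By 31-mers the Hist1h3a peak thus lay on the least unique sequence of the 6. Read length was not used, and longer reads could be placed where a 31-mer could not. Whether the reads of this peak came from Hist1h3a was not checked. The part of sequence copies in the places of these peaks was not tested.

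**Figure D4:**
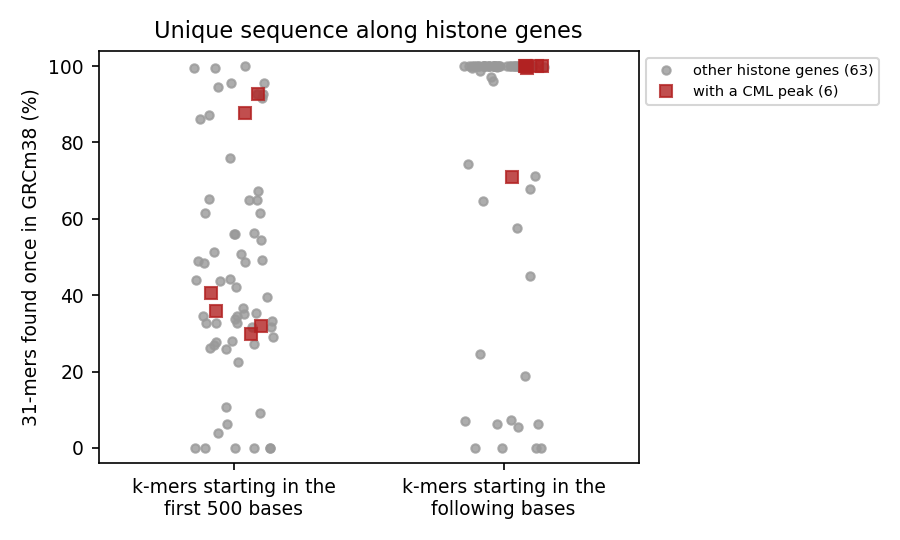
Each point is 1 histone gene, with the percent of its 31-mers found once in GRCm38 (y axis) among those that start in the first 500 bases from the TSS (left) and in the bases after them, up to 1000 bases (right). The red squares are the 6 genes with a CML peak: 4 of them lie between 29.8% and 40.6% on the left, and 5 of 6 lie at 99.4% or more on the right.

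The STAT motif was also counted in these first 1000 bases, the stretch that holds the peaks. TTCNNNGAA was present in 1 of the 6 genes, in 22 of 69 histone genes (31.9%) and in 23.8% of 21000 protein-coding genes. The match was in the first intron of H3f3a, 389 to 397 bp from the start, and the H3f3a peak began only at 643 bp. The form with 4 bases between TTC and GAA was present in 2 of the 6 genes and in 21.2% of all. In Hist1h2ac a match at 491 to 500 bp (TTCAAAAGAA) fell at the distances covered by the peak, and another at 875 to 884 bp did not. The match in Hist1h3a, at 462 to 471 bp, lay past the peak. By these letters 0 of the 6 peaks covered TTCNNNGAA and 1 covered the longer form. The peaks were 132 to 668 bp wide, so the shares over 1000 bases are no background for these counts. No share was computed for stretches of peak width or for other CML peaks. A lack of STAT sites in these peaks is therefore not shown.

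Of 115 genes that handle histones, in 6 lists (histone variants outside the clusters, H3-H4 deposition, H2A-H2B chaperones, histone transcription and mRNA processing, acetylation and methylation), CML named 2 (1.74%), CML-TKI named 6 (5.22%) and WT named 0. The lists were written with earlier results known and the libraries have no replicates, so these shares are set beside the backgrounds above without a test. No variant outside the clusters (0 of 11) and no gene of histone transcription and mRNA processing (0 of 18) was named in any library. In CML the genes were Spty2d1, a histone chaperone, by a peak 108 bp from its TSS, and Hjurp, the chaperone of the centromeric H3 variant. The Hjurp peak, 4 bp from the start, was listed under an older name, A730008H23Rik, and was listed in CML-TKI at 19 bp too. CML-TKI named 4 of 36 histone methylation genes. These were the H3K4 methyltransferase genes Kmt2a (peaks centred at -226 and -207 bp) and Kmt2d (-938 bp), the demethylase gene Kdm5a (128 bp) and Setdb1 (-20252 bp), an H3K9 methyltransferase gene. Sirt6, a deacetylase, was named there at 79 bp. None of these 5 was named in CML or WT.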

How the data were processed

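Chromatin of sorted LSK cells was precipitated with an antibody to pSTAT3-Y705. By the study's methods, duplicates and adapters were removed, reads were aligned with bwa mem, peaks of each library were called with several callers and merged, and annotated with HOMER. The processing notes name mm9, mm10 and Partek 8.0. The deposited table gives position, distance to the TSS and nearest gene of each peak, with no count or score. Read depth is unknown.

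Starts computed from each peak's centre, strand and distance differed from GRCm38 starts by 91869 bp at all 4 cluster genes, by 1930129 bp at H3f3a and by -138686 bp at H3f3b. The positions are therefore not GRCm38 (mm10), the build of the study's methods, and are given as mm9, after the other build in the notes. Whether the deposited peaks came from the steps above is not known. GRCm38 served only for gene models and for sequence at distances from a gene's own start, and no coordinate was converted.

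A peak listed more than once was counted once. Entries rounded to 1 Mb (10.8%) took the ends of an entry with the same chromosome, accession and distance where there was one. The same library was used first, and otherwise another library. A peak given ends from another library overlaps that library by construction, and such peaks enter the overlap shares. Ends were then known for 699 of 746 peaks in WT, for 711 of 715 in CML and for 1727 of 1757 in CML-TKI. Overlap meant at least 1 bp. Of 958 gene names 956 matched the RefSeq gene table, and 3 list symbols did not. The protein comparison was made from translated RefSeq coding sequence. The rule named every histone gene and, of the other lists, every gene with a peak within 5 kb of its TSS and up to 3 more. Members and lists were chosen with earlier results of these data known. Other rules for repeats, peak width, overlap, TSS window and motif were tried. Counting of repeated entries was tested on 400 simulated peaks, of which 400 were recovered. Each rounded entry there had a full entry of the same peak and library. Peaks without ends and ends taken from another library were not simulated. Scripts ran under Python 3.11.15 with pandas 2.3.3 for the tables, scipy 1.17.1 for intervals, numpy 2.4.6, and matplotlib 3.10.9 for plots.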

Additional observations from a re-analysis of the deposited data

How the results depend on the processing

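No paired analysis was possible because a group held a single library. The count of 6 histone peaks in CML was 11 with repeated entries included, 6 after overlapping peaks were merged and 4 at 200 bp or wider, which leaves out H3f3a and Hist1h3a. WT and CML-TKI stayed at 0 under each of these. The 6 genes were also found by RefSeq accession, with other histone variants added, and within 5 kb or 1 kb of the TSS. The overlap with WT or CML-TKI was 0 at 1 bp, at 50% of the peak and within 1 kb, where 58.5%, 58.5% and 59.2% of all CML peaks with known ends overlapped either. Windows of 500 bp and 5 kb held 4 and 6 of the peaks and 14.8% and 25% of all CML peaks, and without the 10 most listed genes and chromosome Y the share within 1 kb was 22.6%. The STAT motif was in 0 promoter windows in each of its 3 forms and in 1 gene when the first 1 kb was searched, a window chosen after seeing the data. The histone machinery lists within 5 kb held 2 genes for CML, 5 for CML-TKI and 0 for WT.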
